A study of Drosophila melanogaster with 15 samples.

Results

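The 9 genes described here encode the main structural proteins of the cytoskeleton in a Drosophila cell line. They are the cytoplasmic actins Act5C (CG4027) and Act42A (CG12051), the alpha-tubulins alphaTub84B (CG1913) and alphaTub84D (CG2512), the beta-tubulin betaTub56D (CG9277), the profilin gene chic (CG9553), the tropomyosin gene Tm1 (CG4898), the myosin II regulatory light chain gene sqh (CG3595) and the myosin II heavy chain gene zip (CG15792). Members are taken by gene identifier, with no threshold on a measured value, and they account for 33 of 22353 transcripts and 9 of 15139 genes in the deposited tables. Act5C and sqh lie on the X chromosome, and the other 7 members are autosomal. Messenger RNA was sequenced from SL2, a male line, in 3 libraries of 1 each: control RNAi, CLAMP RNAi and MSL2 RNAi, all cultured with double-stranded RNA for 6 days at 25 °C. The RNA interference target of the control is not named in the labels. The series also holds 12 chromatin immunoprecipitation and input samples, which are not used here. The study was set up to learn what CLAMP contributes to the expression of X-linked genes.

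Actin filaments and microtubules are polymers whose subunits rank among the most abundant proteins of most animal cells. Profilin delivers actin monomers to growing filament ends, tropomyosin lies along the filament and regulates what binds it, and myosin II pulls on filaments once its regulatory light chain is phosphorylated. Alpha- and beta-tubulin form an obligate dimer, and free tubulin is known to lower the stability of its own messenger RNA in animal cells. CLAMP is a zinc finger protein that binds GA-rich sites, and MSL2 is the subunit that restricts the male-specific lethal (MSL) complex to males. That complex raises transcription along the male X chromosome.

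With 1 library per group no difference had a replicate check, and no p-value was possible. "Higher" and "lower" therefore describe these libraries only. Intervals are exact 95% intervals for counting error alone, and they treat every read as independent. The library totals ran from 67844405 to 68301197. Clamp had an RPKM (reads scaled to transcript length in kilobases and to the library total) of 66.2 in control, 19.8 with CLAMP RNAi and 66.9 with MSL2 RNAi, and msl-2 had 19.8, 19.4 and 5.16 in that order. All 10 blood cell markers examined had an RPKM of at least 1 in every library. This line is known as hemocyte-like, but a mean RPKM of 1 was reached by 7485 of 15139 genes. Of 6 neuron markers 2 reached it, elav at 8.25, 7.35 and 5.41 RPKM and brp at 4.84, 4.70 and 7.58. The blood cell marker NimC1 stood at 4.27, 5.04 and 4.14 RPKM in the same order. Of 15 muscle markers 13 had a mean RPKM below 1, among them the muscle myosin heavy chain gene Mhc, and TpnC73F and TpnC47D had no reads. Of the germline markers aub, zpg and bol reached a mean RPKM of 1, with a sum over the list of 81.6 to 89.7 RPKM. These were bulk cultures, so fewer cells of a kind and less RNA per cell cannot be told apart.

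All 9 members were expressed strongly in every library, over a range from 54.4 to 3465 RPKM. Together they took 1.76% of the library total in control, 1.64% with CLAMP RNAi and 1.95% with MSL2 RNAi. Act5C led in each library, followed by alphaTub84B and Act42A, then betaTub56D, chic, sqh, zip, alphaTub84D and Tm1. In that order, neighbours differed by more than counting error apart from 2 overlaps. With CLAMP RNAi the intervals of Act42A and alphaTub84B overlapped and Act42A stood first, at 1606 RPKM (1598 to 1613) and 1594 RPKM (1587 to 1601). With MSL2 RNAi those of zip and alphaTub84D overlapped, at 131.9 RPKM (130.8 to 133.0) and 131.9 RPKM (130.2 to 133.6). RPKM divides by transcript length, but each level is that of the transcript with the most reads. In control Act5C had 3198 RPKM by that transcript (2251 bases) and 4191 RPKM by CG4027-RB (1605 bases). Levels compared between genes therefore depend on the transcript used.

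**Figure D1:**
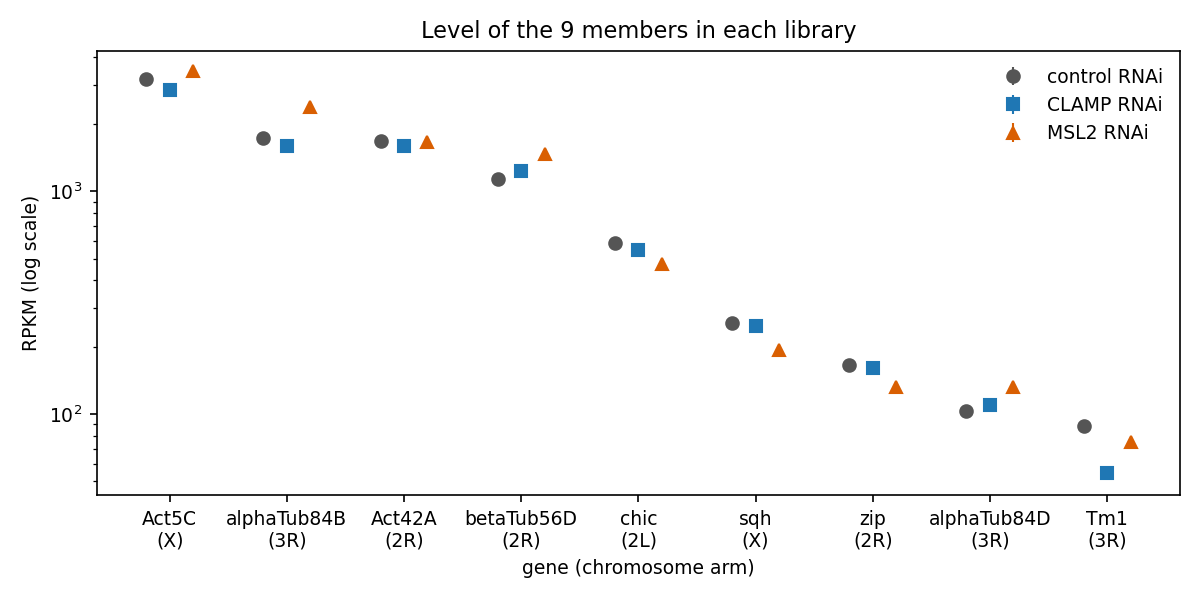
RPKM (log scale) of each member in the control, CLAMP RNAi and MSL2 RNAi libraries, ordered by the control level, with exact 95% counting intervals that are mostly narrower than the symbols. Act5C is highest in all 3 libraries, the 3 tubulin genes stand highest with MSL2 RNAi, and Tm1 is lowest with CLAMP RNAi at 54.4 RPKM.

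Act5C, the main cytoplasmic actin, was above control with MSL2 RNAi, where most X-linked genes were below it. It had 489709 reads in control, 437466 with CLAMP RNAi and 529137 with MSL2 RNAi, or 3198, 2845 and 3465 RPKM. It was therefore lowest with CLAMP RNAi and highest with MSL2 RNAi. The read ratio to control was 0.890 (0.886 to 0.893) with CLAMP RNAi and 1.08 (1.08 to 1.09) with MSL2 RNAi. On the log2 scale of RPKM plus 0.1 these were −0.17 and 0.12. The median log2 ratio of the 1292 X-linked genes tested (mean RPKM 1 or more) was −0.33 with MSL2 RNAi. Act5C stood 0.45 above that median, and 69 of the X-linked genes stood higher. A ratio above control was found for 133 of them, or 10.3%. Among the 102 X-linked genes whose mean RPKM reached 100, 16 were above control and 7 were above Act5C, so a strongly expressed X-linked gene was on the same side of control as Act5C in 15.7% of cases. Its 4 transcripts stood at −0.17 with CLAMP RNAi and between 0.12 and 0.14 with MSL2 RNAi, but their counts share reads and are not separate measurements.

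Act42A, the second cytoplasmic actin, stayed close to control. It had 1692 RPKM in control, 1606 with CLAMP RNAi and 1662 with MSL2 RNAi, with log2 ratios of −0.08 and −0.03. The coding sequences of the fly actins are closely similar, and the sources used here do not say how reads that match several copies were counted, so the division of reads between Act5C and Act42A is uncertain. The muscle actins Act57B, Act79B, Act87E and Act88F had 69, 2, 11 and 3 reads in control. These counts are far below those of the cytoplasmic actins, but which reads match several actin copies was not examined.

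The 3 tubulin genes were all higher than control with MSL2 RNAi. alphaTub84B, the major alpha-tubulin gene, had 216868 reads in control, 199661 with CLAMP RNAi and 298136 with MSL2 RNAi (1738, 1594 and 2396 RPKM). Its read ratio to control was 1.38 (1.37 to 1.39) with MSL2 RNAi and 0.917 (0.912 to 0.923) with CLAMP RNAi, so the knockdown libraries stood on opposite sides of control. betaTub56D, the beta-tubulin gene with the highest level here, had 1132 RPKM in control, 1233 with CLAMP RNAi and 1469 with MSL2 RNAi. Its read ratio was 1.30 (1.29 to 1.31) with MSL2 RNAi and 1.09 (1.08 to 1.10) with CLAMP RNAi. alphaTub84D, the minor alpha-tubulin gene, had 103.8, 109.5 and 131.9 RPKM, with read ratios of 1.27 (1.25 to 1.30) with MSL2 RNAi and 1.05 (1.03 to 1.08) with CLAMP RNAi. With MSL2 RNAi the log2 ratios of the 3 tubulins lay between 0.34 and 0.46, while the median over 6062 genes of the major autosomal arms was 0.03. Of those autosomal genes, 95.5% had a lower ratio than alphaTub84B, 93.4% a lower one than betaTub56D and 92.3% a lower one than alphaTub84D. The alpha-tubulin genes encode nearly identical proteins, and reads may have been divided between them.

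**Figure D2:**
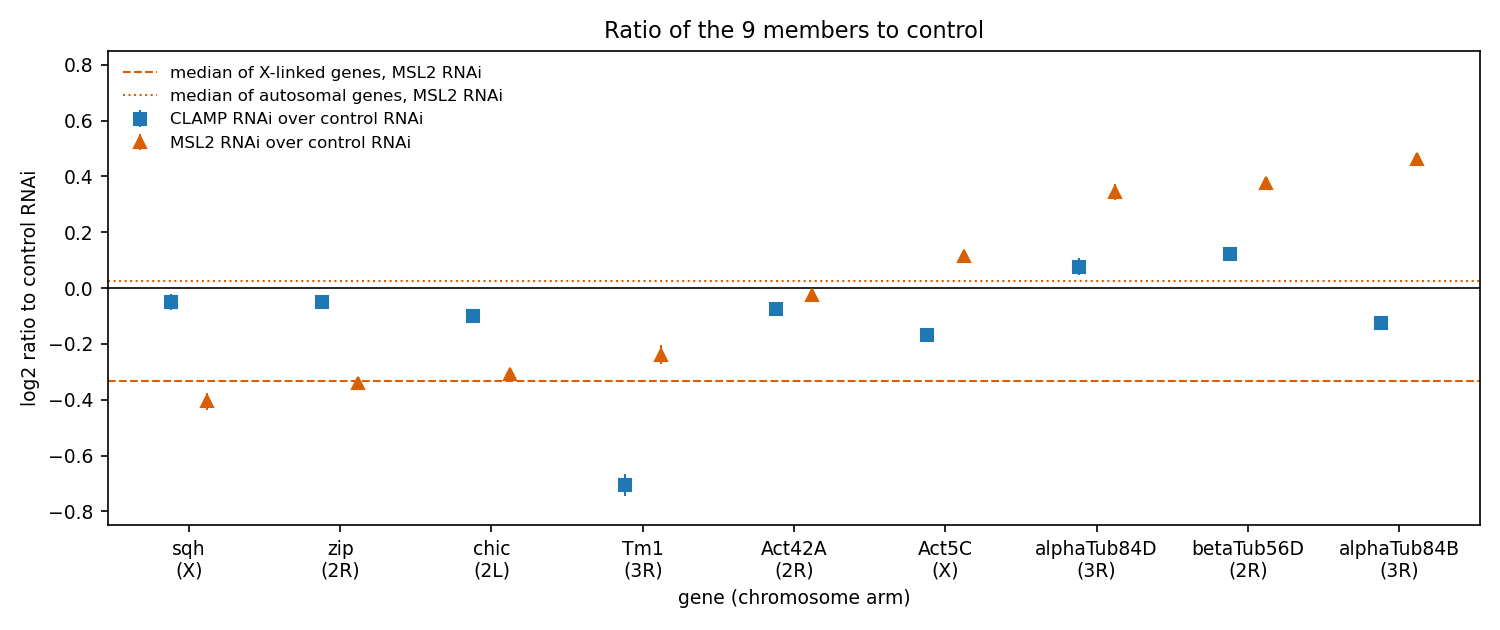
Log2 ratio to control of the 9 members with CLAMP RNAi (squares) and MSL2 RNAi (triangles), ordered by the MSL2 RNAi value, with exact 95% counting intervals. Dashed and dotted lines give the MSL2 RNAi medians of X-linked genes (−0.33) and of genes on the major autosomal arms (0.03). Act5C, though X-linked, lies above 0 with MSL2 RNAi, the autosomal zip and chic lie near the X-linked median, and Tm1 has the lowest CLAMP RNAi value (−0.71).

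Both myosin II genes and profilin were lower than control with MSL2 RNAi and close to it with CLAMP RNAi. sqh, the X-linked light chain gene, had 19961 reads in control, 19368 with CLAMP RNAi and 15024 with MSL2 RNAi (257, 249 and 194 RPKM). Its log2 ratio with MSL2 RNAi, −0.41, lay at −0.07 relative to the X-linked median, and 802 X-linked genes stood higher. zip, the autosomal heavy chain gene, had 73735, 71540 and 58121 reads (167, 161 and 132 RPKM). The autosomal zip thus had a log2 ratio of −0.34 with MSL2 RNAi, near the median of X-linked genes, and 8.84% of autosomal genes were lower. chic had 588 RPKM in control, 548 with CLAMP RNAi and 474 with MSL2 RNAi, with log2 ratios of −0.10 and −0.31. Of the autosomal genes, 9.91% had a lower ratio than chic with MSL2 RNAi. With CLAMP RNAi sqh and zip had the same log2 ratio of −0.05, which is also the autosomal median. All 4 transcripts of zip and all 4 of chic were below control in both comparisons. Transcripts of a gene share most of these reads, so they are not separate measurements.

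Tm1 had the largest difference of any member, and the difference depended on the transcript. CG4898-RA, the Tm1 transcript with the most reads, had 14761 reads in control, 9082 with CLAMP RNAi and 12477 with MSL2 RNAi (88.8, 54.4 and 75.2 RPKM). Its read ratio to control was 0.613 (0.597 to 0.629) with CLAMP RNAi and 0.848 (0.828 to 0.868) with MSL2 RNAi, and 2.75% of autosomal genes had a lower CLAMP RNAi ratio. CG4898-RB and CG4898-RL were lower too, with read ratios of 0.601 and 0.676 with CLAMP RNAi.

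Another 4 of the 12 Tm1 transcripts were higher than control with CLAMP RNAi. CG4898-RC had 4889 reads in control, 6002 with CLAMP RNAi and 4432 with MSL2 RNAi, with a read ratio of 1.22 (1.18 to 1.27) with CLAMP RNAi. CG4898-RE, CG4898-RH and CG4898-RI had ratios of 1.23, 1.23 and 1.20. The remaining 5, at 3.88 to 5.16 RPKM in control, had ratios from 0.960 to 0.974 whose intervals include 1. Of these, CG4898-RD, CG4898-RG and CG4898-RJ had identical reads in each library (442, 426 and 349) and cannot be told apart. Set against CG4898-RA within the same library, the RPKM of CG4898-RC was 22.1% in control, 44.0% with CLAMP RNAi and 23.7% with MSL2 RNAi. That share does not depend on library scaling. CG4898-RE, CG4898-RH and CG4898-RI had shares of 20.8% to 29.1% in control, 41.6% to 57.0% with CLAMP RNAi and 23.0% to 32.3% with MSL2 RNAi. CG4898-RL differed less, at 71.3%, 78.7% and 75.6%, and CG4898-RB stood at 25.3%, 24.8% and 24.6%. With MSL2 RNAi all 12 transcripts were below control, from −0.33 to −0.09 on the log2 scale. Reads in shared exons enter the count of every transcript that holds the exon, so these values are not separate molecules. The muscle markers, whose tissue also uses Tm1, summed to 5.65 RPKM in control, 5.07 with CLAMP RNAi and 4.52 with MSL2 RNAi. Most of that decrease lay in sls, at 1.97, 1.34 and 0.669 RPKM. Of the 15 muscle markers, 8 were above control and 5 below with CLAMP RNAi, and 9 were above and 4 below with MSL2 RNAi. Of all genes tested, 37.3% and 46.6% were above control. Only 2 of the 15 reached a mean RPKM of 1, so many of these directions rest on few reads. Mhc, for one, had 8 reads in control and 17 with MSL2 RNAi. The blood cell markers summed to 4692, 6938 and 5483 RPKM. Of these, 9 of 10 were above control with CLAMP RNAi and 7 of 10 with MSL2 RNAi, beside 37.3% and 46.6% of all genes tested. He was below control in both, at 40.6, 22.1 and 26.6 RPKM. The part of either marker list in the Tm1 result was not tested.

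**Figure D3:**
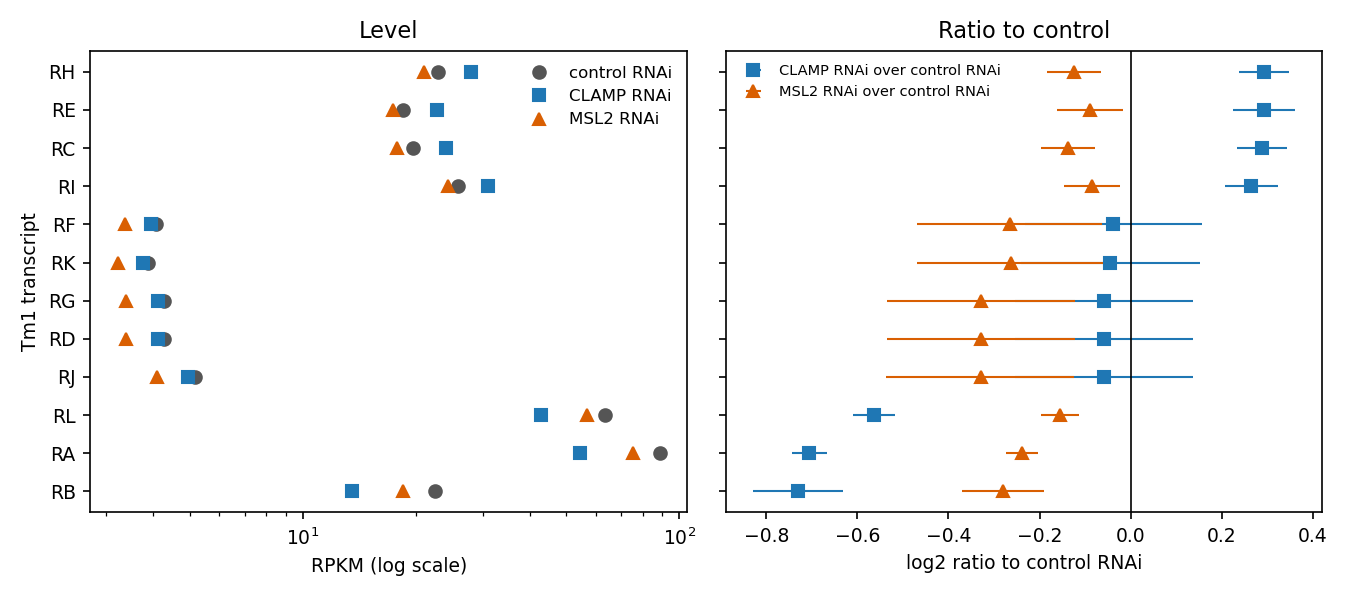
The 12 Tm1 transcripts, named by the letters of their transcript identifiers and ordered by the CLAMP RNAi ratio: RPKM in each library (left, log scale) and log2 ratio to control with exact 95% counting intervals (right). RA, RB and RL lie well below 0 with CLAMP RNAi, RC, RE, RH and RI lie between 0.26 and 0.29, and all 12 are below 0 with MSL2 RNAi.

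Few members passed 1.5-fold in any comparison. With CLAMP RNAi 1 of 9 was at least 1.5-fold lower, Tm1, beside 3.86% of the 7485 genes tested, and 0 were 1.5-fold higher, beside 1.5%. With MSL2 RNAi 0 were lower, beside 5.32%, and 0 higher, beside 2.53%. Between the knockdown libraries, MSL2 RNAi over CLAMP RNAi, 0 were lower, beside 3.62%, and alphaTub84B was higher, beside 4.24%. Its ratio of 1.503 lay at the threshold, and scaling to the autosomal median took it below. The Tm1 count also rested on the transcript used, since with the longest Tm1 transcript, or with the mean over transcripts, 0 members were 1.5-fold lower. The median log2 ratio of the members was −0.08 with CLAMP RNAi and −0.03 with MSL2 RNAi, against −0.06 and −0.02 over all genes tested. In MSL2 RNAi over CLAMP RNAi it was 0.25, against 0.05 over all genes, but the members' median was 0.050 with the longest transcript and 0.066 with the mean over transcripts. The comparisons with control share that library. Without it, the tubulins were still higher with MSL2 RNAi than with CLAMP RNAi, by 0.25 to 0.59 on the log2 scale, Act5C was higher by 0.28 and Act42A by 0.05, while sqh, zip and chic stood at −0.36, −0.29 and −0.21. Tm1 again depended on the transcript, at 0.47 for CG4898-RA, −0.43 for the longest, CG4898-RC, and 0.07 for the mean, with 9 of 12 transcripts below 0.

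Ratios between partner genes within a library do not depend on how libraries are scaled, but their size depends on the transcript used for each gene. Their intervals use a normal approximation to counting error. The RPKM of Act5C over that of Act42A was 1.89 in control, 1.77 with CLAMP RNAi and 2.08 with MSL2 RNAi. Against control this ratio was multiplied by 0.938 (0.931 to 0.945) and by 1.10 (1.09 to 1.11), so the X-linked actin was higher relative to its autosomal partner with MSL2 RNAi. The myosin pair behaved differently. sqh over zip was 1.54 in control, 1.54 with CLAMP RNAi and 1.47 with MSL2 RNAi, a change of 0.955 (0.932 to 0.978) in the last. The read ratios to control behind that value were 0.755 for the X-linked light chain and 0.790 for the autosomal heavy chain. The alpha-tubulins summed over betaTub56D gave 1.63, 1.38 and 1.72, lowest with CLAMP RNAi, where the change was 0.849 (0.841 to 0.857). The 3 tubulins summed over the 2 actins gave 0.608 in control, 0.660 with CLAMP RNAi and 0.780 with MSL2 RNAi.

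**Figure D4:**
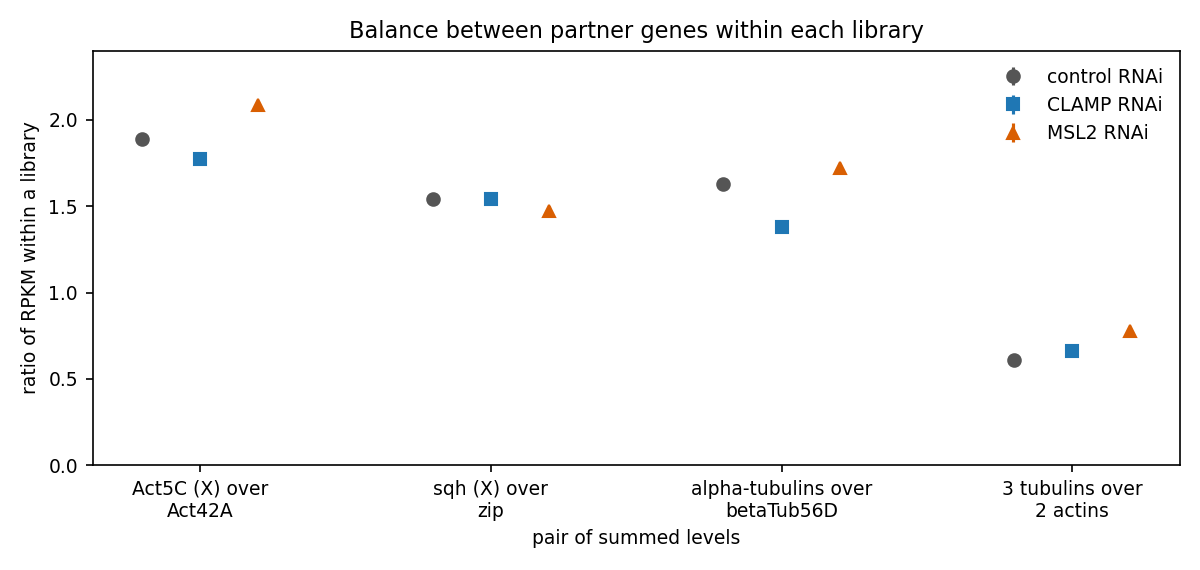
Ratio of RPKM between partner genes within each library (control, CLAMP RNAi, MSL2 RNAi), with 95% counting intervals that are narrower than the symbols. Act5C over Act42A is highest with MSL2 RNAi (2.08), sqh over zip lies between 1.47 and 1.54, the alpha-tubulin to beta-tubulin ratio is lowest with CLAMP RNAi (1.38), and tubulin over actin is highest with MSL2 RNAi (0.780).

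Other tubulin genes, at lower levels, differed from one another with CLAMP RNAi. betaTub97EF, a further beta-tubulin gene, had 40.5 RPKM in control, 22.6 with CLAMP RNAi and 30.5 with MSL2 RNAi (log2 ratios −0.84 and −0.41). betaTub60D, known in flies as a tubulin of muscle and nerve, had 61.7, 95.1 and 62.3 RPKM (0.62 and 0.01). They lay on opposite sides of control with CLAMP RNAi, each past 1.5-fold, whereas betaTub56D stood at 0.12. Of all genes tested, 3.86% were at least 1.5-fold lower and 1.5% higher with CLAMP RNAi. betaTub97EF and betaTub60D were named as the lowest and highest of the other tubulin genes tested. The gamma-tubulin gene gammaTub23C, which nucleates microtubules, had log2 ratios of −0.13 and −0.10. alphaTub85E had 1.59, 1.55 and 1.71 RPKM, with log2 ratios of −0.04 and 0.10. These were the 4 of 7 other tubulin genes that reached a mean RPKM of 1, and the muscle actins, muscle myosins and Tm2 on the same list of 15 did not. The tubulins typical of testis and ovary, betaTub85D, alphaTub67C and gammaTub37C, summed to 0.467 RPKM in control, 0.515 with CLAMP RNAi and 0.668 with MSL2 RNAi.

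The genes that fold tubulin and actin lay on both sides of control with MSL2 RNAi, by less than 1.5-fold. This list holds the CCT chaperonin, which folds both proteins, prefoldin, which hands them over, and the tubulin cofactors. Of its 15 autosomal members tested, 10 were above control with MSL2 RNAi (median 0.10), beside 54.6% of autosomal genes. None of the 15 passed 1.5-fold, beside 3.18% of autosomal genes lower and 2.94% higher. The autosomal CCT genes lay between 0.10 and 0.22, with CCT7 highest, and the tubulin cofactor genes between −0.23 and −0.14. The Pfdn genes lay between −0.02 and 0.21, and mgr stood at 0.21. These groups were set apart after their values were seen. The X-linked CCT2 and CCT6 were below control, at −0.34 and −0.21. With CLAMP RNAi the median of the 17 tested members was 0.05, with CCT4 at 0.17 and TBCE at −0.20.

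The X-linked partner genes, like most X-linked genes and unlike Act5C, were below control with MSL2 RNAi. Over the 6 lists of partner genes, 25 of 25 X-linked genes were below control (median −0.44), beside 89.7% of all X-linked genes tested (median −0.33). Of the 25, 3 were at least 1.5-fold lower, beside 14.9% of X-linked genes. Those 3 were Fim, the fimbrin gene that bundles actin, at −0.73, Mlc-c, the essential light chain gene of myosin, at −0.59, and Arp2 at −0.59. Moe, the moesin gene that ties actin to the membrane, stood at −0.53, short of 1.5-fold. Vinc (vinculin) stood at −0.20 and the small GTPase gene Cdc42 at −0.45. With CLAMP RNAi 19 of these 25 were below control, with a median of −0.16, beside 62.4% of X-linked genes, with a median of −0.05.

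Autosomal genes around myosin and the cell cortex were also lower than control, in both knockdown libraries. Of 14 tested autosomal myosin regulators and other myosins, 14 were below control with MSL2 RNAi (median −0.17) and 13 with CLAMP RNAi (median −0.13), beside 45.4% and 62.5% of autosomal genes. Myo28B1, an unconventional myosin gene, was lowest at −1.25 with MSL2 RNAi and −0.995 with CLAMP RNAi, while Mbs, the myosin phosphatase targeting subunit, stood at −0.01 in both. Of 8 tested autosomal genes of actin crosslinking and the cortex, 8 were below control in each comparison (median −0.21 with MSL2 RNAi and −0.29 with CLAMP RNAi). The spectraplakin gene shot, which links actin and microtubules, was lowest, with 40.9 RPKM in control, 26.5 with CLAMP RNAi and 25.3 with MSL2 RNAi, and the paxillin gene Pax stood at −0.01 with MSL2 RNAi. The control is shared by these comparisons, and in MSL2 RNAi over CLAMP RNAi the medians of the autosomal myosin and cortex lists were −0.05 and 0.01.

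Genes that assemble actin filaments or ride on microtubules varied among themselves. Of 26 autosomal assembly genes, 18 were below control with MSL2 RNAi and 14 with CLAMP RNAi, beside 45.4% and 62.5% of autosomal genes. None of the 26 passed 1.5-fold in either. Of autosomal genes, 3.18% were 1.5-fold lower and 2.94% higher with MSL2 RNAi, and 3.91% and 1.53% with CLAMP RNAi. The tropomodulin gene tmod, which caps the slow-growing filament end, was highest with CLAMP RNAi at 0.50, and the X-linked pod1 was lowest at −0.37. Cortactin was highest with MSL2 RNAi at 0.33. tsr, which encodes cofilin and severs filaments, had 481 RPKM in control, 407 with CLAMP RNAi and 365 with MSL2 RNAi. Of 27 autosomal microtubule motors and associated proteins, 21 were below control with MSL2 RNAi and 23 with CLAMP RNAi, beside the same autosomal shares of 45.4% and 62.5%. With MSL2 RNAi 2 of the 27 were 1.5-fold lower, stai and the dynein heavy chain gene Dhc64C (−0.65), beside 3.18%. The stathmin gene stai, whose product binds free tubulin dimers, had 36.1 RPKM in control, 34.1 with CLAMP RNAi and 17.2 with MSL2 RNAi (log2 ratio −1.06). A link between stai and the levels of the tubulin genes was not tested. The katanin gene kat-60 was highest with MSL2 RNAi at 0.17. Map205 and Patronin marked the ends with CLAMP RNAi, at −0.42 and 0.23.

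**Figure D5:**
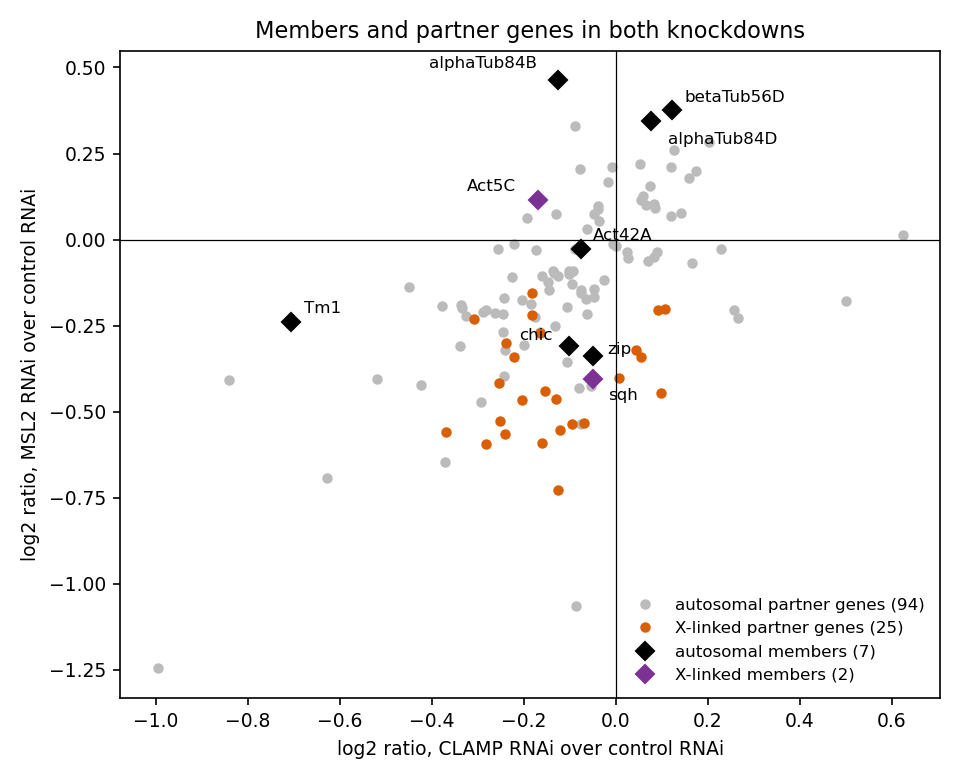
Log2 ratio to control with CLAMP RNAi (x axis) and MSL2 RNAi (y axis) for the members (diamonds) and for 119 tested partner genes (circles: 25 X-linked, 94 autosomal). All 25 X-linked partner genes lie below 0 on the y axis, while the X-linked Act5C lies at 0.12, and alphaTub84B, betaTub56D and alphaTub84D lie above every partner gene on the y axis. Both axes use the same control library.

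Some genes outside the 9 followed nearly the same course as a member over the 3 libraries. Likeness was the Euclidean distance in the log2 ratios to control, among 1543 genes whose mean RPKM reached 50. Nearest to Act5C were CG8839, CG9705 and Polr2I, at distances of 0.01, 0.02 and 0.04, all autosomal. Nearest to sqh were the formin gene Frl, emc and eIF4H1, at 0.02, 0.02 and 0.03, of which eIF4H1 is X-linked. Nearest to alphaTub84B were Echs1, Nfs1 and the aldolase gene Ald1, at 0.03, 0.03 and 0.05. With 3 libraries, such closeness is a description only.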

How the data were processed

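Messenger RNA of SL2 cells was sequenced by a TruSeq protocol, per the labels' protocols, in 1 library per group. The deposited files list, for each of 22353 transcripts, a count of whole reads, a length and a library total. The deposited RPKM values equal the read count scaled to the length and to the library total, as recomputed from the files. Bowtie and build dm3 are named in the submitters' processing notes, while the sources used here name no counting tool, annotation release or strand setting. Reads of isoforms, overlapping genes and close copies could not be told apart.

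The transcript with the most mean reads stood for each gene. These transcripts held 95.0%, 95.6% and 95.2% of the totals in control, CLAMP RNAi and MSL2 RNAi. Symbols and chromosome arms were looked up in a RefSeq gene table (assembly Release 6 plus ISO1 MT). Its start positions were used only to order genes when neighbours were picked. All 9 members matched by locus tag. The background was the 7485 genes whose mean RPKM reached 1. Log2 ratios used RPKM plus 0.1, which understates the change of low genes. Read ratios carry exact Clopper-Pearson intervals and levels exact Poisson intervals. No count model could be fitted with 1 library per group, so a fixed fold of 1.5 was used. The calculations were tested on simulated data (Python 3.11.15, scipy 1.17.1).

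Members and lists were chosen with earlier results of these data known. From each list the lowest and highest gene per comparison at a mean RPKM of at least 5 are named. Moe, Mlc-c, Arp2, tsr, CCT6, mgr, gammaTub23C, alphaTub85E and Dhc64C were added after their values were seen. So were the neuron markers, the ranges of the CCT, Pfdn and tubulin cofactor genes and the genomic neighbours. Of 172 listed genes 8 were not analysed here. Alternatives were pseudocounts of 0.01 and 1, the longest transcript or the mean over transcripts, other scalings and other level filters.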

Additional observations from a re-analysis of the deposited data

How the results depend on the processing

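Pseudocounts of 0.01 and 1 changed no sign and no side of 1.5-fold among the 27 member values. The choice of transcript mattered for Tm1. With the longest transcript its log2 ratio after CLAMP RNAi was 0.29 in place of −0.71, so 0 members were 1.5-fold lower (between the knockdowns −0.43 in place of 0.47), and with the mean over all transcripts it was also 0. The members' median with the longest transcript was −0.049 after CLAMP RNAi and 0.050 in MSL2 RNAi over CLAMP RNAi, the latter 0.066 with the mean over transcripts. Scaling to an autosomal median of 0 gave medians of −0.021 after CLAMP RNAi, −0.052 after MSL2 RNAi and 0.17 between the knockdowns, and upper-quartile scaling gave −0.042, −0.0083 and 0.24. Under both scalings 0 members were 1.5-fold higher in MSL2 RNAi over CLAMP RNAi, and the autosomal scaling turned 3 of the 27 signs, those of sqh and zip after CLAMP RNAi and of Act42A between the knockdowns. Act5C over Act42A changed by 1.11 after MSL2 RNAi and by 1.19 between the knockdowns with the mean over transcripts, and the alpha to beta tubulin ratio by 1.23 between the knockdowns with the longest transcript. The background shares moved with the level filter. At a mean RPKM of at least 5, 2.03% of genes were 1.5-fold lower and 0.792% higher after CLAMP RNAi, 1.04% were higher after MSL2 RNAi, and 2.07% were higher in MSL2 RNAi over CLAMP RNAi. With no filter 2.48% were higher after CLAMP RNAi and 4.30% after MSL2 RNAi. No paired analysis was possible because each group had 1 mRNA library. Counting error was small at this depth, while variation between cultures was not measured.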

Other observations

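Genes that neighbour the members on the chromosome gave a local frame, chosen after the data were seen, of up to 5 tested genes on each side. After MSL2 RNAi the 10 neighbours of Act5C had a median log2 ratio of −0.18, from −0.59 to 0.58, and 1 of them stood above Act5C. With 3 per side the median was −0.18 and with 10 per side −0.25. The 10 neighbours of sqh had a median of −0.26, and 8 stood above sqh. The tubulin genes stood above all 10 of their neighbours in each case, where the medians were 0.06 around alphaTub84B, −0.16 around alphaTub84D and −0.08 around betaTub56D. zip and chic were lower than most of theirs, with 7 of 8 and 8 of 10 neighbours higher. After CLAMP RNAi all 10 neighbours of Tm1 stood above its transcript with the most reads, with a median of −0.01.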
